A study of Mus musculus with 14 samples.

Results

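Cholesterol and fatty acids are made in the skin from acetyl-CoA by a chain of enzymes whose genes answer to the SREBP transcription factors. Here 39 genes of these pathways were followed while SOX9 was switched on in epidermal stem cells. They were taken by gene symbol from the 54332 genes of the RNA-seq time course, as 5 SREBP regulators, 6 enzymes of the mevalonate steps, 10 enzymes of the sterol steps, the sterol carrier gene *Stard4*, 4 fatty acid synthesis enzymes, 5 desaturases, 6 elongases and 2 cholesterol exporters. The cells were EpdSCs (stem cells of the epidermis between the hair follicles), sorted from the back skin of CD1 mice labelled male that carried K14rtTA and TRE-myc-Sox9. In these mice the *Krt14* promoter of the skin epithelium drives the activator, and doxycycline (DOX) then turns on a MYC-tagged *Sox9*. The sort took cells negative for CD31, CD45, CD117 and CD140a, high in CD49f and Ly6A, and negative for CD34. All 5 groups had this genotype: D0 at postnatal day 21, W1 at day 28, W2 at day 35, W6 at day 63, and W12, with 2 replicate libraries each. DOX began at day 21 for W1 to W6. The W12 skin had been grafted at birth onto female Nude hosts, which lack T cells but keep other blood cells, and DOX began after the graft had healed. Grafting, age and time on SOX9 cannot be told apart at W12. From D0 to W6 age and time on DOX also rose together, and RNA of control mice of the same age was not analysed here.

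The mevalonate steps turn acetyl-CoA units into farnesyl diphosphate, and the sterol steps turn that into lanosterol and then cholesterol. Fatty acids are built by ACACA and FASN, lengthened by the ELOVL enzymes and given double bonds by the SCD and FADS enzymes. SREBP2, made from *Srebf2*, is best known for driving the sterol genes, and SREBP1, from *Srebf1*, for the fatty acid genes. SCAP escorts both proteins to the Golgi, where they are cut and set free, and INSIG1 and INSIG2 hold SCAP back when sterols are plentiful. In the epidermis, cholesterol, fatty acids and ceramides form the lipid barrier of the outer layers.

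Values are TPM, a transcript abundance corrected for length that sums to 1000000 in each library. The depth behind them is therefore unknown, and no counting interval can be given. Changes are differences in log2(TPM + 1) with their SE from limma, fitted over all 10 libraries for the 13110 genes whose mean reached 1 TPM. A gene was called at a Benjamini-Hochberg adjusted p under 0.05 over all of them. On this scale the change of a gene with low TPM is understated. Of the 39 genes, 37 were tested, and *Elovl3* and *Fads2* fell short of the minimum. The labels do not say more of the replicates than that they are biological, so the p-values measure the spread between these libraries.

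MYC-SOX9 stood at 89.6 and 45.6 TPM at D0 and between 606 and 3414 in the 8 later libraries, highest at W1 and without overlap with D0. Replicate 2 of D0, labelled male, had 4.61 TPM of *Xist* and 0.0278 TPM of *Ddx3y*, a gene of the Y chromosome. Both W12 libraries listed both genes (*Xist* at 5.51 and 3.50, *Ddx3y* at 10.97 and 12.9 TPM). Markers of the basal layer summed to 58109 and 60587 TPM at D0, 45139 and 45124 at W1 and 39809 and 41052 at W2. At W6 they summed to 35501 and 36322 TPM and at W12 to 45450 and 47237. Of these 9 markers 0 were called higher and 7 lower at W6 than at D0, and 2 higher and 5 lower at W12. Of all genes, 18.3% were higher and 14.1% lower at W6, and 17.9% and 25.1% at W12. Markers of the suprabasal layers summed to 5785 and 1912 TPM at D0, 3772 to 7349 at W1 and W2, and 11938 to 13558 at W6 and W12. Immediate early genes summed to 32874 and 53926 TPM at D0 against 5890 to 13788 later, so D0 stood apart on them from all other timepoints. The part of these differences in the results below was not tested. The libraries are bulk RNA, in which fewer cells of a type and less RNA per cell cannot be told apart.

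The genes' promoters were searched first, because SREBP acts at sterol regulatory elements together with neighbouring factors such as NF-Y. RefSeq promoters on GRCm38.p6 matched 30 of the 39 genes. *Fdps*, *Fdft1*, *Sqle*, *Stard4*, *Scd1*, *Scd2*, *Elovl3*, *Fads1* and *Abcg1* did not match. In the 250 bases before the start, on both strands, the letters CCAAT of the NF-Y box were found in 22 of the 30 genes and in 13 of the 13 mevalonate and sterol genes that had a promoter. The same letters were in 37.5% of 27025 genes and 33.8% of all 32851 promoters. The GC box GGGCGG was found in 25 of the 30 and in 12 of the 13 (35.4% of genes and 32.7% of all promoters), and the E-box CACGTG in 7 of the 30 and 3 of the 13 (6.86% of genes and 6.02% of promoters). The sterol regulatory element-like letters TCACNCCAC were found in *Hmgcs1* alone, from base -137 to base -129 counted from its start (1.22% of genes and 1.05% of promoters). No motif contains another, and each was counted apart. Printed here are stretches of 6 promoters whose genes the results turn on, namely 4 sterol pathway genes that were low at W1 and W2 and, for comparison, *Fasn* and *Fads3*, which were lowest and highest at W12. Capitals mark the CCAAT box on either strand and, in *Hmgcs1*, the sterol regulatory element-like letters. No base lies in an exon of GENCODE M21.
Insig1: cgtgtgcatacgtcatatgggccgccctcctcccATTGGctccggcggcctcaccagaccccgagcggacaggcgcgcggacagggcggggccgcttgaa
Hmgcs1: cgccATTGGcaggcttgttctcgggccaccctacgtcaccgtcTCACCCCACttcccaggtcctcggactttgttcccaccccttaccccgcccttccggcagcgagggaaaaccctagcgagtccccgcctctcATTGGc
Hsd17b7: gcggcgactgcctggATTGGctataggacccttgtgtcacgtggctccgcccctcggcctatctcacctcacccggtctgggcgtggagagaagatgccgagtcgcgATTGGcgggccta
Sc5d: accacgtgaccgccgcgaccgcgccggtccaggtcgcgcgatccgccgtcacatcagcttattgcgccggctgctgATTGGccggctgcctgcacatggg
Fasn: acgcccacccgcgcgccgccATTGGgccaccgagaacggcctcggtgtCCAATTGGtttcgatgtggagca
Fads3: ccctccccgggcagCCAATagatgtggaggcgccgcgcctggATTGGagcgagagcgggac
They read 5′ to 3′ on the gene's strand and lie at chr5:28071162-28071261 (plus strand), chr13:119690171-119690311 (plus), chr1:169969266-169969385 (minus), chr9:42264301-42264400 (minus), chr11:120824587-120824657 (minus) and chr19:10041428-10041488 (plus). A match of letters describes the window and is no test of binding, and the box is present both in genes that were low early and in genes that were not, such as *Mvk* and *Ebp*.

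Across the 5 timepoints 34 of the 37 genes tested differed by limma's F test, against 57.5% of all genes tested. *Acly* (adjusted p = 0.053), *Acaca* (0.093) and *Fads1* (0.13) did not pass. The groups of genes took different courses. The 16 mevalonate and sterol genes summed to 1418 and 1047 TPM at D0, 490 and 576 at W1, 627 and 639 at W2, 1295 and 1056 at W6 and 1210 and 1320 at W12. Every W1 and W2 library lay below every other library on this sum, which at W1, W2, W6 and W12 stood at 43.3%, 51.4%, 95.4% and 103% of the D0 mean. The lowest of the 5 timepoint means fell at W1 or W2 for 13 of the 16 genes, against 27.9% of all genes tested. The 5 desaturases summed to 45.0% of the D0 mean at W1 and 238% at W6, and the 6 elongases to 127% at W1 and 169% at W12. *Scd1* and *Scd2*, at 28.8 and 23.3 TPM on average, held most of the desaturase sum of 53.5 TPM at D0. At W1 the scarcer *Fads1*, *Fads2* and *Fads3* stood at 215%, 28.4% and 428% of their D0 means. The 4 fatty acid synthesis genes summed to 60.8% at W2 and 58.2% at W12, and the 5 regulators to 138% at W2 and 54.4% at W12.

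**Figure D1:**
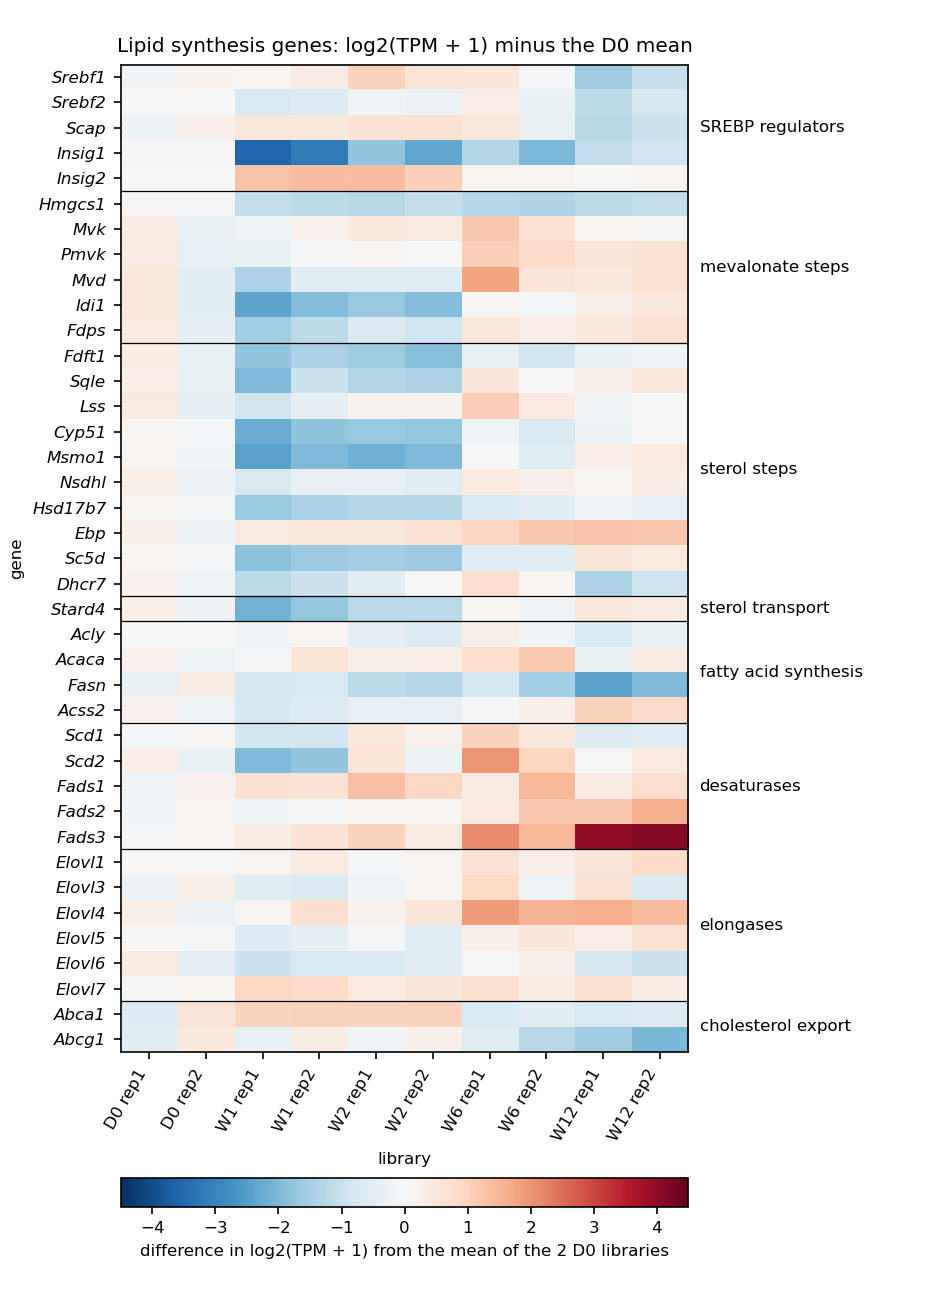
Difference in log2(TPM + 1) of each of the 39 genes (rows, by role) from the mean of the 2 D0 libraries, in each of the 10 libraries (columns; rep, replicate); blue is lower and red higher. Most mevalonate and sterol genes are blue in all 4 libraries of W1 and W2 and pale at W6 and W12, while *Fads3* is darkest at W12.

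The regulators moved apart. *Insig1*, which retains SCAP and is itself an SREBP target, had 44.1 and 41.3 TPM at D0, 2.66 and 3.87 at W1, 11.8 and 7.73 at W2, 16.6 and 9.88 at W6 and 19.6 and 23.0 at W12. Its libraries after DOX lay below both D0 libraries throughout, lowest at W1, where the mean was 7.64% of D0. Its log2 change from D0 was -3.37 ± 0.28 (adjusted p = 0.00036) at W1, -2.05 ± 0.28 (adjusted p = 0.0021) at W2, -1.66 ± 0.28 (adjusted p = 0.0032) at W6 and -0.97 ± 0.28 (adjusted p = 0.022) at W12. All 4 falls were called, that at W12 only while no D0 or W12 library was left out (adjusted p of up to 0.12 without one), and the other 3 held in all alternatives. *Insig2*, which has the same role, went the other way early, with 51.7 and 51.5 TPM at D0, 128 and 136 at W1, 140.0 and 109 at W2, 56.5 and 55.8 at W6 and 51.6 and 55.7 at W12. The 4 libraries of W1 and W2 stood above all others. *Insig2* rose by 1.34 ± 0.15 (adjusted p = 0.0012) at W1 and 1.24 ± 0.15 (adjusted p = 0.0012) at W2, and then fell from W2 to W6 (-1.12 ± 0.15, adjusted p = 0.0039). All 3 calls held in every alternative.

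*Srebf2* had 103 and 108 TPM at D0, 63.6 and 69.1 at W1, 92.3 and 88.1 at W2, 130.2 and 84.6 at W6 and 46.0 and 62.3 at W12. Both W1, both W2 and both W12 libraries were below D0, and the fall passed the test at W12 (-0.96 ± 0.22, adjusted p = 0.0077) but not at W1 (-0.66 ± 0.22, adjusted p = 0.094). *Srebf1* had 81.3 and 102 TPM at D0, 96.1 and 117 at W1, 187 and 136 at W2, 132 and 88.2 at W6 and 29.7 and 43.7 at W12. It was highest at W2, above both D0 libraries, where the change did not pass (0.80 ± 0.27, adjusted p = 0.078). It was lowest at W12, lower than at D0 (-1.31 ± 0.27, adjusted p = 0.0051) and than at W6 (-1.56 ± 0.27, adjusted p = 0.0063). *Scap* had 67.5 and 95.2 TPM at D0, 116 and 116 at W1, 127 and 128 at W2, 113 and 65.3 at W6 and 33.3 and 40.9 at W12. It too was lowest at W12, where it was lower than at D0 (-1.10 ± 0.26, adjusted p = 0.0097) and than at W6 (-1.20 ± 0.26, adjusted p = 0.015). Without replicate 1 of W12 the W12 falls from D0 of *Srebf2* and *Scap* missed the threshold (adjusted p of up to 0.065 and 0.073), as did all 3 genes' falls from W6. Those of *Srebf2* and *Scap* from W6 were also lost without replicate 1 of W6 (up to 0.14 and 0.12), and that of *Scap* from D0 without replicate 2 of D0.

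At W1, 14 of the 37 genes were lower than at D0 and 2 were higher, against 9.89% of all genes called (4.1% lower and 5.79% higher). The median log2 change was -0.66 over the 37 genes and 0.09 over all genes. Among the 16 mevalonate and sterol genes 10 were lower and 0 higher, with a median of -1.24, and 12 of the 16 had both W1 libraries below both D0 libraries (20.7% of all genes). At W2, 11 genes were lower and 1 was higher, against 15.7% of all genes called (6.64% lower and 9.06% higher). Of the 16, 8 were lower and 0 higher (median -0.97), and 10 of the 16 had both libraries below both D0 libraries (26.6% of all genes). Between W1 and W2, limma called 0 of the 37 genes (0.114% of all genes, 0.0458% higher and 0.0686% lower), while 7 of 37 (6 higher and 1 lower) passed an unadjusted p under 0.05, against 14.5% of all genes. Both comparisons with D0 share its libraries. Without replicate 2 of D0, the library that went against its label, 9 of the 16 were lower at W1 and 9 at W2, and without replicate 1 of D0 it was 8 and 7. Without replicate 1 of W1, 9 of the 37 were called at W1 in place of 16.

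Mevalonate genes differed in how far they went. *Hmgcs1*, the enzyme that makes HMG-CoA, had 326 and 307 TPM at D0, 149 and 139 at W1, 131 and 148 at W2, 130.1 and 125 at W6 and 141 and 146 at W12. All 8 libraries after DOX held at most 149 TPM, below both D0 libraries. Its log2 change was -1.13 ± 0.12 (adjusted p = 0.0012) at W1 and -1.18 ± 0.12 (adjusted p = 0.00068) at W2. At W6 it was -1.31 ± 0.12 (adjusted p = 0.00024) and at W12 -1.14 ± 0.12 (adjusted p = 0.00024), and all 4 falls held in every alternative. Among the 16, no other gene was called lower at all 4 timepoints. *Idi1*, which isomerizes the 5-carbon units, had 108 and 55.6 TPM at D0, 14.1 and 19.4 at W1, 23.2 and 19.5 at W2, 85.5 and 73.8 at W6 and 92.7 and 111 at W12. It fell at W1 (-2.16 ± 0.29, adjusted p = 0.0028) and W2 (-1.82 ± 0.29, adjusted p = 0.0046), although its D0 libraries were far apart. From W2 to W6 it rose (1.85 ± 0.29, adjusted p = 0.0072) to levels that overlapped with D0. *Fdps*, which joins these units to farnesyl diphosphate, had 241 and 128 TPM at D0, 59.3 and 78.2 at W1, 112 and 94.5 at W2, 251 and 219 at W6 and 243 and 282 at W12. It was lower at W1 (-1.36 ± 0.28, adjusted p = 0.017), not called at W2 (-0.77 ± 0.28, adjusted p = 0.098), and higher at W6 than at W2 (1.18 ± 0.28, adjusted p = 0.027). Its W1 call was lost without either replicate of W1 (adjusted p of up to 0.11).

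The 3 middle enzymes *Mvk*, *Pmvk* and *Mvd*, which phosphorylate and decarboxylate mevalonate, were not called lower at any timepoint against D0. *Mvk* had 51.3 and 31.8 TPM at D0, 35.6 and 46.1 at W1, 57.2 and 54.2 at W2, 94.2 and 66.3 at W6 and 43.3 and 41.8 at W12. *Mvd* had 11.6 and 5.47 TPM at D0, 2.49 and 5.55 at W1, 5.47 and 5.31 at W2, 30.2 and 12.1 at W6 and 11.6 and 13.5 at W12, and *Pmvk* ranged from 19.6 to 55.3 TPM. *Mvk* (0.95 ± 0.25, adjusted p = 0.02) and *Pmvk* (0.97 ± 0.24, adjusted p = 0.015) were higher at W6 than at D0, both lost without replicate 2 of D0 or replicate 1 of W6. From W2 to W6, *Pmvk* (0.94 ± 0.24) and *Mvd* (1.66 ± 0.47) rose, and *Mvk* fell from W6 to W12 (-0.88 ± 0.25, adjusted p = 0.04). These last 3 calls were lost in 12 or 13 alternatives each.

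Of the sterol enzymes, *Msmo1*, a demethylase of the early sterols, had 153 and 129.8 TPM at D0, 25.4 and 34.6 at W1, 30.6 and 34.99 at W2, 143 and 97.3 at W6 and 173 and 193 at W12. The 4 libraries of W1 and W2 lay between 25.4 and 34.99 TPM and all others at 97.3 or more. It fell at W1 (-2.21 ± 0.22, adjusted p = 0.00076) and W2 (-2.08 ± 0.22, adjusted p = 0.00067) and rose from W2 to W6 (1.82 ± 0.22, adjusted p = 0.0028). *Cyp51*, the lanosterol demethylase, had 68.0 and 61.2 TPM at D0, 12.8 and 17.8 at W1, 19.1 and 18.5 at W2, 56.3 and 40.2 at W6 and 55.1 and 65.5 at W12. Again W1 and W2 did not overlap with any other timepoint. The change was -2.02 ± 0.21 (adjusted p = 0.00093) at W1, -1.73 ± 0.21 (adjusted p = 0.0013) at W2 and 1.30 ± 0.21 (adjusted p = 0.008) from W2 to W6. *Hsd17b7*, a sterol ketone reductase, had 51.0 and 44.2 TPM at D0, 14.3 and 16.4 at W1, 18.9 and 18.9 at W2, 29.0 and 33.4 at W6 and 42.3 and 36.5 at W12. It fell at W1 (-1.57 ± 0.16, adjusted p = 0.00086) and W2 (-1.28 ± 0.16, adjusted p = 0.0014). It rose from W2 to W6 (0.69 ± 0.16, adjusted p = 0.025) and was then still lower than D0 (-0.59 ± 0.16, adjusted p = 0.022). The call at W6 against D0 was lost without replicate 1 of D0 or of W6 (adjusted p of up to 0.16).

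*Sc5d*, which adds a double bond to the sterol ring near the end of the pathway, had 46.9 and 40.5 TPM at D0, 11.5 and 13.3 at W1, 14.2 and 13.3 at W2, 29.6 and 29.2 at W6 and 63.9 and 59.3 at W12. It fell at W1 (-1.74 ± 0.15, adjusted p = 0.00038) and W2 (-1.59 ± 0.15, adjusted p = 0.00042) and was still lower at W6 (-0.55 ± 0.15, adjusted p = 0.022). At W12 it lay above every other library, higher than at W6 (1.04 ± 0.15, adjusted p = 0.0027) and than at D0 (0.49 ± 0.15, adjusted p = 0.027). The small rise over D0 was lost in 7 alternatives, among them without replicate 2 of D0 or either of W12 (adjusted p of up to 0.13). The W6 fall was lost without replicate 1 of D0 or replicate 2 of W6 (up to 0.17). The 2 enzymes that open the sterol branch, *Fdft1* (squalene synthase) and *Sqle* (squalene epoxidase), were also low at W1 and W2. *Fdft1* had 98.0 and 62.0 TPM at D0, 21.9 and 27.8 at W1, 24.9 and 20.0 at W2, 61.1 and 41.3 at W6 and 63.4 and 71.9 at W12. It fell at W1 (-1.62 ± 0.26, adjusted p = 0.0066) and W2 (-1.76 ± 0.26, adjusted p = 0.0034). *Sqle* had 59.97 and 38.5 TPM at D0, 11.4 and 24.3 at W1, 18.5 and 17.8 at W2, 72.1 and 47.3 at W6 and 58.2 and 67.5 at W12. It also fell at W1 (-1.47 ± 0.35, adjusted p = 0.032) and W2 (-1.36 ± 0.35, adjusted p = 0.033). Both falls of *Sqle* missed the threshold without replicate 1 of D0, and in 10 and 8 alternatives in all (adjusted p of up to 0.16). The W1 fall of *Fdft1* missed it without replicate 1 of W1 (0.053). Both rose from W2 to W6 (1.13 ± 0.26, adjusted p = 0.027 for *Fdft1* and 1.63 ± 0.35, adjusted p = 0.02 for *Sqle*).

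*Dhcr7*, the reductase of the last step, had 66.5 and 51.5 TPM at D0, 25.3 and 29.8 at W1, 40.9 and 58.7 at W2, 98.3 and 61.5 at W6 and 21.7 and 30.1 at W12. It was lower than D0 at W1 (-1.06 ± 0.28, adjusted p = 0.047), a call lost in 13 alternatives. At W12 it was lower than at D0 (-1.16 ± 0.28, adjusted p = 0.01) and at W6 (-1.57 ± 0.28, adjusted p = 0.0072) unless replicate 1 of W12 was left out. *Ebp*, a sterol isomerase, went up late, with 59.3 and 43.3 TPM at D0, 67.1 and 72.1 at W1, 72.0 and 79.8 at W2, 99.5 and 118 at W6 and 126 and 119 at W12. It was above both D0 libraries at every timepoint and was called at W6 (1.08 ± 0.17, adjusted p = 0.0025) and W12 (1.26 ± 0.17, adjusted p = 0.00077), in every alternative. *Lss* (6.93 to 29.4 TPM), which closes the rings, and *Nsdhl* (12.7 to 30.0 TPM), which works beside MSMO1, were not called against D0. *Stard4*, a carrier that moves sterols between membranes, followed the sterol enzymes with 17.2 and 11.7 TPM at D0, 2.46 and 3.52 at W1, 5.62 and 5.61 at W2, 15.4 and 12.8 at W6 and 20.4 and 18.5 at W12. It fell at W1 (-1.94 ± 0.23, adjusted p = 0.0015) and W2 (-1.20 ± 0.23, adjusted p = 0.0095) and rose from W2 to W6 (1.19 ± 0.23, adjusted p = 0.014). Its W2 fall was lost without either replicate of W2 (adjusted p of up to 0.071).

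**Figure D2:**
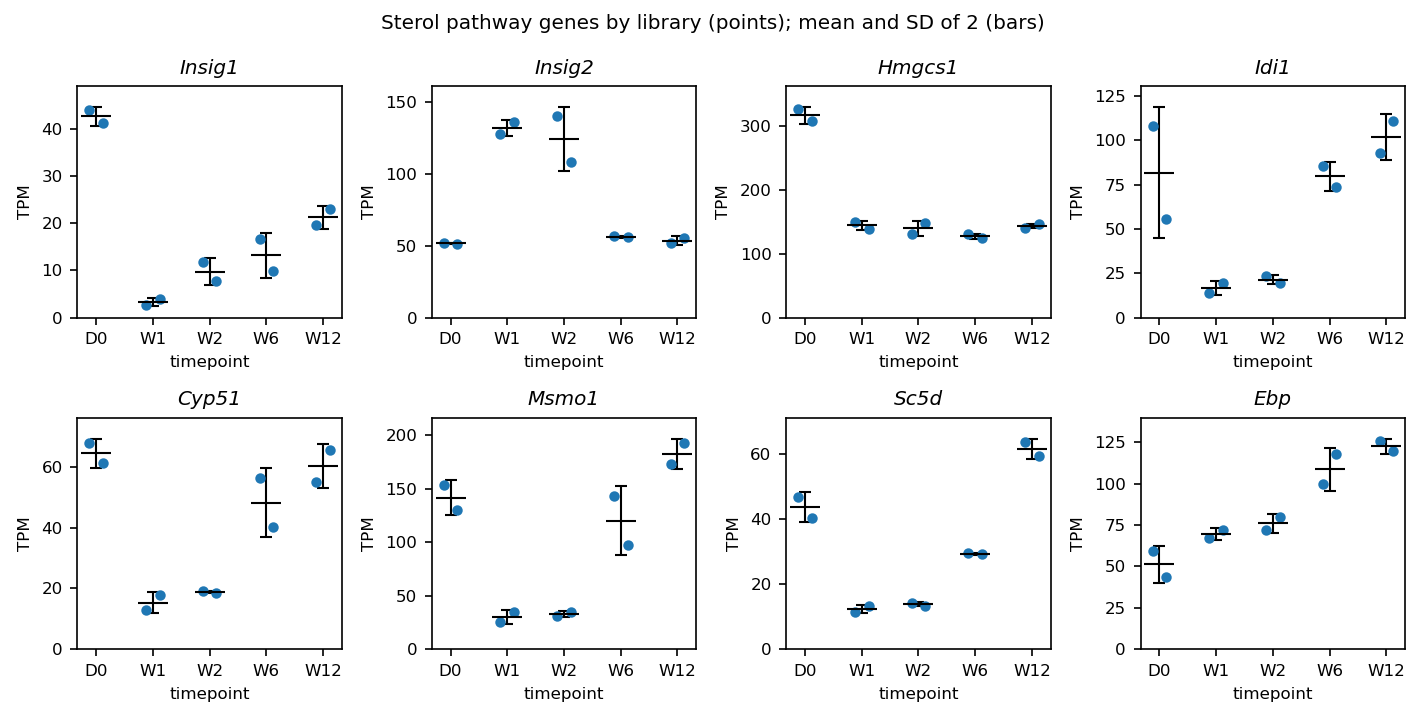
TPM (vertical axes, from 0) of 8 sterol pathway genes at each timepoint; points are the 2 libraries, the long bar their mean and the error bars 1 SD. *Idi1*, *Cyp51*, *Msmo1* and *Sc5d* are low at W1 and W2 and higher after, *Hmgcs1* stays below D0 from W1 to W12, *Insig1* is lowest and *Insig2* high at W1, and *Ebp* is highest at W12.

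From W2 to W6, 14 of the 37 genes rose and 2 fell, against 16.3% of all genes called (7.99% higher and 8.31% lower). Of the 16 mevalonate and sterol genes, 11 rose and 0 fell, with a median log2 change of 0.99 against 0.01 over all genes. The counts rested on both W2 libraries, since without either of them only 2 of the 37 and 1 of the 16 were called, and without replicate 1 of W6 it was 10 and 5. The calls that held in all alternatives were the rise of *Msmo1* and the fall of *Insig2*. The median over the 16 kept its sign under both rescalings of the libraries, at 0.98 and 1.00. Against W1, a comparison added after the data had been seen, 15 of the 16 were higher at W6 and 0 lower, against 22.9% of all genes called (10.6% higher and 12.3% lower). Against W2, also added, 10 of the 16 were higher at W12 and 1 was lower, against 42.9% of all genes called (15.7% higher and 27.2% lower). The rises of *Idi1*, *Fdps*, *Fdft1*, *Sqle*, *Cyp51*, *Msmo1*, *Hsd17b7* and *Sc5d* from W2 to W12 held in every alternative. At W6 and W12 the 16 genes had no common direction against D0, with 3 higher and 3 lower at W6 and 2 higher and 2 lower at W12. Those counts moved with the D0 library used: 6 higher and 1 lower at W6 without replicate 1 of D0, 1 higher and 4 lower without replicate 2, and at W12 5 and 2 or 1 and 2.

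Over all 37 genes, 8 were higher and 5 lower at W6 than at D0, against 32.4% of all genes called (18.3% higher and 14.1% lower). At W12, 7 were higher and 10 lower, against 43% (17.9% higher and 25.1% lower). Neither count is far above the background. The split at W12 moved with the scaling of the libraries, to 9 higher and 9 lower by median-ratio scaling and 10 and 8 by quantile normalization. Without replicate 2 of D0, 9 were called at W6 and 9 at W12. From W6 to W12, 3 rose and 8 fell, against 20.2% of all genes (6.66% higher and 13.5% lower). The median of all genes for that step was -0.16 in TPM and moved by 0.15 with median-ratio scaling, under which 4 genes were higher and 5 lower and the calls of *Mvk*, *Fasn* and *Elovl6* were lost. Without replicate 1 of W12, 3 of the 11 were left. At W12 *Pecam1*, a marker of endothelium and the CD31 antigen the sort selected against, stood at 26.1 and 59.8 TPM against at most 1.14 before, and *Cdh5* at 1.61 and 3.64. *Cd74*, of antigen-presenting cells, stood at 102 and 124 TPM against 2.09 to 26.4, and *Fabp4*, of fat cells and small vessels, at 166 and 256 against at most 2.63. The 5 endothelial markers summed to 36.8 and 82.9 TPM (0.0598 to 2.38 before), the 9 immune markers to 105 and 129 (5.50 to 29.8) and the 8 adipocyte markers to 168 and 259 (2.27 to 5.51). The 7 fibroblast markers summed to 13.7 and 28.1 TPM at W12, and replicate 2 of W6 stood apart on them with 52.2 TPM against 0.551 to 4.09 in the other 7 earlier libraries. The 5 melanocyte markers summed to 1.23 to 12.3 TPM over all libraries. In the same lists, beside the genes that were high at W12, *Col1a1* stood at up to 0.481 TPM in any library, *Ptprc* at up to 0.327, *Plin1* at up to 0.24 and *Adipoq* at 0. The part of these cell types in the W6 and W12 values was not tested.

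**Figure D3:**
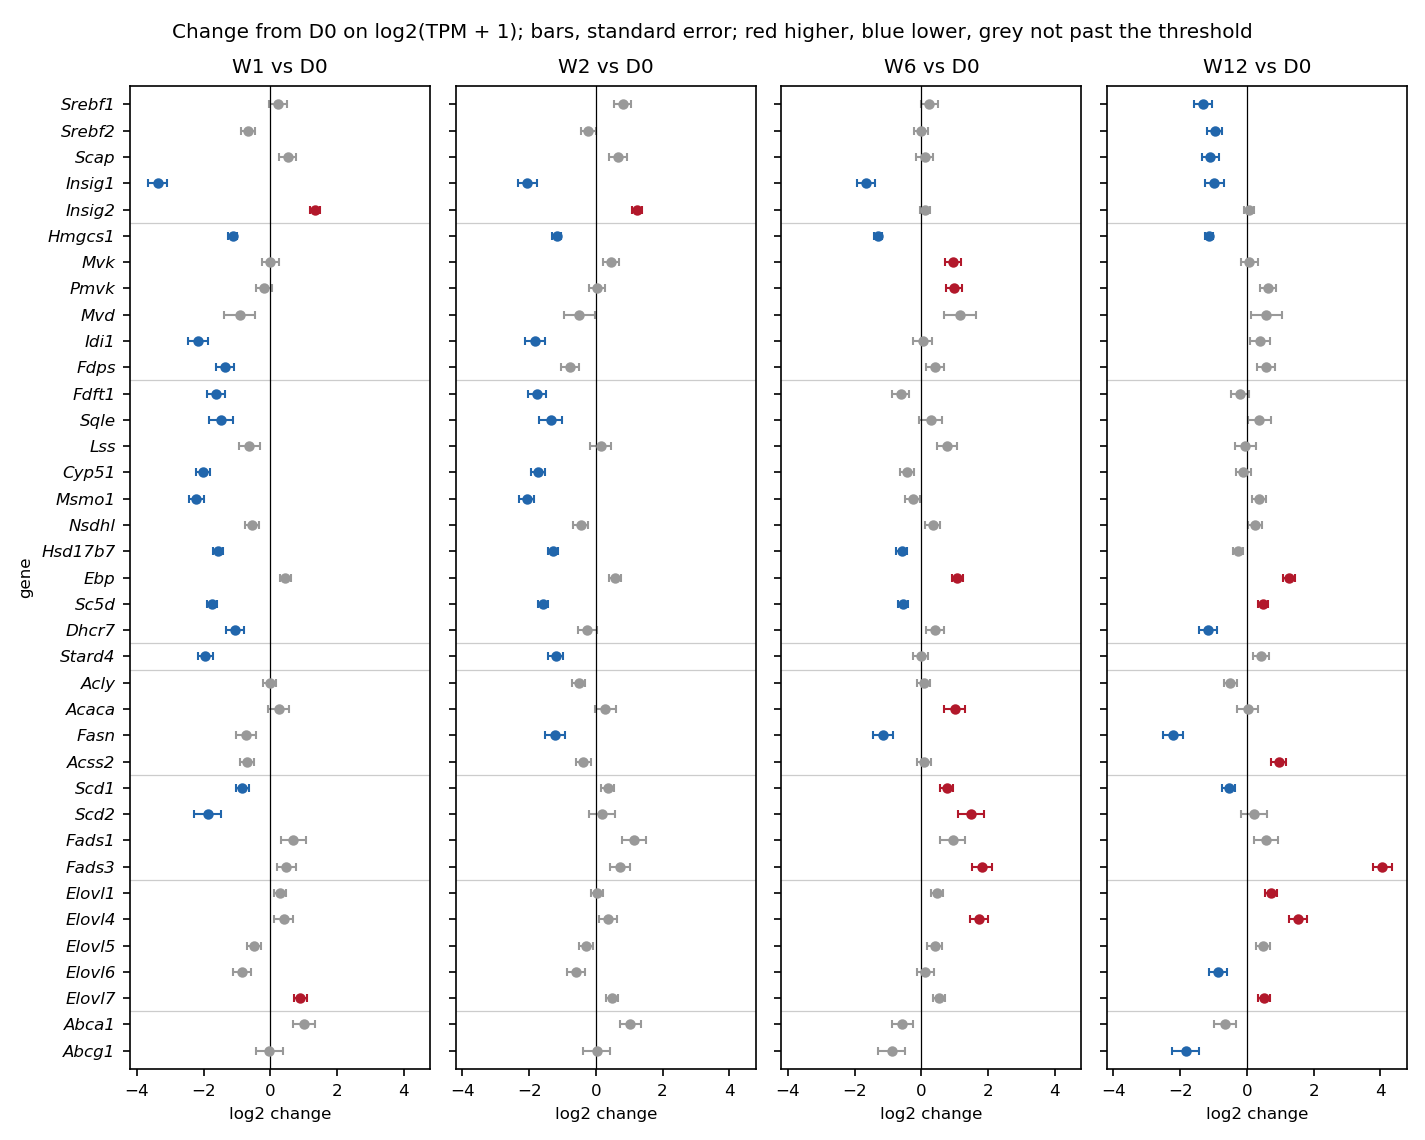
Change in log2(TPM + 1) from D0 (horizontal axes) of the 37 genes tested at W1, W2, W6 and W12, with its SE from limma; red genes were called higher and blue lower at an adjusted p under 0.05, and grey genes were not called. Blue points crowd among the mevalonate and sterol genes at W1 and W2, and *Fads3* lies furthest right at W12.

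The 4 fatty acid synthesis genes took separate courses. *Fasn*, the fatty acid synthase, had 34.7 and 57.1 TPM at D0, 26.2 and 26.7 at W1, 19.3 and 17.8 at W2, 25.6 and 14.9 at W6 and 7.53 and 10.5 at W12. Every library after DOX lay below both D0 libraries, and it was lower at W2 (-1.22 ± 0.30, adjusted p = 0.027), W6 (-1.15 ± 0.30, adjusted p = 0.02) and W12 (-2.20 ± 0.30, adjusted p = 0.00072). The W12 fall held in every alternative, while that at W2 was lost without replicate 2 of D0 or either of W2 (adjusted p of up to 0.15) and that at W6 without replicate 2 of D0 or of W6 (up to 0.13). *Acss2*, which makes acetyl-CoA from acetate, had 5.15 and 3.64 TPM at D0, 2.08 and 2.52 at W1, 3.14 and 3.12 at W2, 4.04 and 5.33 at W6 and 9.98 and 8.73 at W12. It was higher at W12 than at D0 (0.95 ± 0.22, adjusted p = 0.009) and at W6 (0.87 ± 0.22, adjusted p = 0.026). The first call was lost without replicate 2 of D0 or replicate 1 of W12, and the second in 8 alternatives, among them without replicate 1 of W6 or either of W12 (adjusted p of up to 0.16). *Acaca*, the carboxylase that commits acetyl-CoA to fatty acids, ranged from 3.26 to 10.96 TPM and was called only at W6 against D0 (1.00 ± 0.31, adjusted p = 0.039), a call lost in 8 alternatives. *Acly*, which frees acetyl-CoA from citrate, ranged from 41.8 to 82.0 TPM and was not called in any of these comparisons.

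Of the desaturases, *Scd1* and *Scd2* were lower at W1 and higher at W6 than at D0. *Scd1*, the main Δ9 desaturase of skin, had 27.0 and 30.6 TPM at D0, 15.7 and 15.48 at W1, 41.6 and 33.3 at W2, 58.7 and 41.7 at W6 and 18.9 and 19.8 at W12. Both W1 libraries were below and both W6 libraries above both D0 libraries. It was lower at W1 (-0.84 ± 0.19, adjusted p = 0.028), higher at W6 (0.76 ± 0.19, adjusted p = 0.017) and, less steadily, lower at W12 (-0.55 ± 0.19, adjusted p = 0.048), a call lost in 15 alternatives. The W1 call was lost in 9 alternatives, among them without replicate 2 of D0 or either of W1 (adjusted p of up to 0.16), and the W6 call without replicate 1 of D0 or of W6 (up to 0.12). Its fall from W6 to W12 (-1.31 ± 0.19, adjusted p = 0.0032) held in all of them. *Scd2*, its close relative, had 28.5 and 18.2 TPM at D0, 5.04 and 5.91 at W1, 35.5 and 19.0 at W2, 93.1 and 45.8 at W6 and 22.7 and 30.9 at W12. It too was lower at W1 (-1.88 ± 0.39, adjusted p = 0.019) and higher at W6 (1.48 ± 0.39, adjusted p = 0.021). The first call was lost without replicate 1 of D0 or either of W1 (adjusted p of up to 0.11) and the second without replicate 2 of D0 or replicate 1 of W6 (up to 0.13). *Scd2* (chromosome 19, 44293674 to 44306864, plus strand, GRCm38) and *Scd1* (44394455 to 44407879, minus strand) are neighbours. Of the 31-base words of *Scd1* transcripts, 8.18% also occur in other genes, mostly *Scd2* and *Scd3*, so reads could be split among them.

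*Fads3*, a member of the fatty acid desaturase family, had the largest change from D0 of the 37 genes tested on this scale, with 0.0816 and 0.199 TPM at D0, 0.428 and 0.774 at W1, 1.32 and 0.525 at W2, 3.99 and 2.20 at W6 and 17.2 and 18.9 at W12. Every W6 library was above every earlier one and both W12 libraries above both W6 libraries. It rose over D0 at W6 (1.81 ± 0.30, adjusted p = 0.0028) and W12 (4.06 ± 0.30, adjusted p = 3.3e-05) and from W6 to W12 (2.25 ± 0.30, adjusted p = 0.0019), each in every alternative. The rise from W2 to W6 (1.09 ± 0.30, adjusted p = 0.041) was lost in 13. Its 2 relatives lie beside it on chromosome 19, *Fads3* at 10041569 to 10060110, *Fads2* at 10062765 to 10101746 and *Fads1* at 10182888 to 10196877. *Fads2*, the Δ6 desaturase, had 0.0347 and 0.226 TPM at D0, 0.0258 and 0.0484 at W1, 0.233 and 0.231 at W2, 0.511 and 1.62 at W6 and 1.60 and 2.52 at W12 and was not tested. *Fads1*, the Δ5 desaturase, ranged from 0.84 to 4.86 TPM and was not called.

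Of the elongases, 3 were called higher and 1 lower at W12 than at D0, against 17.9% higher and 25.1% lower of all genes. *Elovl4*, which makes the very long chains of barrier ceramides, had 35.8 and 24.1 TPM at D0, 30.6 and 49.8 at W1, 33.7 and 43.2 at W2, 112 and 87.5 at W6 and 92.4 and 81.3 at W12. All 4 libraries of W6 and W12 were above all 6 earlier libraries. The rises at W6 (1.72 ± 0.27, adjusted p = 0.0025) and W12 (1.53 ± 0.27, adjusted p = 0.0028) held in every alternative. Suprabasal markers also summed higher at W6 and W12, as given above, but not all 7 of them rose. Against D0, 4 were called higher and 0 lower at W6, and 3 higher and 1 lower at W12. Among all genes 18.3% were higher and 14.1% lower at W6. *Elovl1* (106 to 200.02 TPM), another elongase of very long chains, was higher at W12 (0.72 ± 0.18, adjusted p = 0.013). *Elovl7* (35.9 to 74.9 TPM) was higher at W1 (0.91 ± 0.18, adjusted p = 0.016) and W12 (0.52 ± 0.18, adjusted p = 0.045). *Elovl6* (7.87 to 22.2 TPM), which extends the products of FASN, was lower at W12 than at D0 (-0.87 ± 0.26, adjusted p = 0.027) and at W6 (-0.99 ± 0.26, adjusted p = 0.031). *Elovl5* (8.80 to 22.4 TPM) was not called against D0 or between neighbouring timepoints, but was higher at W12 than at W2 (0.78 ± 0.22, adjusted p = 0.02), lost without replicate 2 of W2 or of W12, and at W6 than at W1 (0.88 ± 0.22, adjusted p = 0.022). *Elovl3*, the sebaceous elongase, had 0.31 and 0.902 TPM at D0, 0.0809 and 0 at W1, 0.429 and 0.66 at W2, 1.95 and 0.4 at W6 and 1.47 and 0 at W12 and was not tested. The call of *Elovl1* was lost without replicate 2 of D0 or of W12 (adjusted p of up to 0.092), that of *Elovl7* at W12 in 12 alternatives, among them without either replicate of D0 (up to 0.26), and that of *Elovl7* at W1 without either replicate of W1 (0.099). For *Elovl6* the fall from D0 was lost without replicate 1 of D0 or either of W12 (up to 0.14). Its fall from W6 was lost in 11 alternatives, among them without any 1 library of W6 or W12 (up to 0.15).

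Cholesterol exporters, which answer to the sterol-sensing LXR receptors, were at low levels. *Abca1* had 4.40 and 10.8 TPM at D0, 14.8 and 15.3 at W1, 15.3 and 15.3 at W2, 4.01 and 4.79 at W6 and 3.79 and 4.38 at W12. Its 4 libraries of W1 and W2 were above all others, while the difference from D0 passed at neither W1 (1.01 ± 0.32, adjusted p = 0.087) nor W2 (1.03 ± 0.32, adjusted p = 0.061). It fell from W2 to W6 (-1.60 ± 0.32, adjusted p = 0.016), a call lost without either replicate of W2, and from W2 to W12 (-1.68 ± 0.32, adjusted p = 0.0034), in every alternative. *Abcg1* had 4.05 and 8.98 TPM at D0, 4.44 and 7.87 at W1, 5.24 and 7.39 at W2, 3.87 and 2.00 at W6 and 1.33 and 0.719 at W12. It was lower at W12 than at D0 (-1.83 ± 0.41, adjusted p = 0.0073), a call lost without replicate 2 of D0 or of W12.

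**Figure D4:**
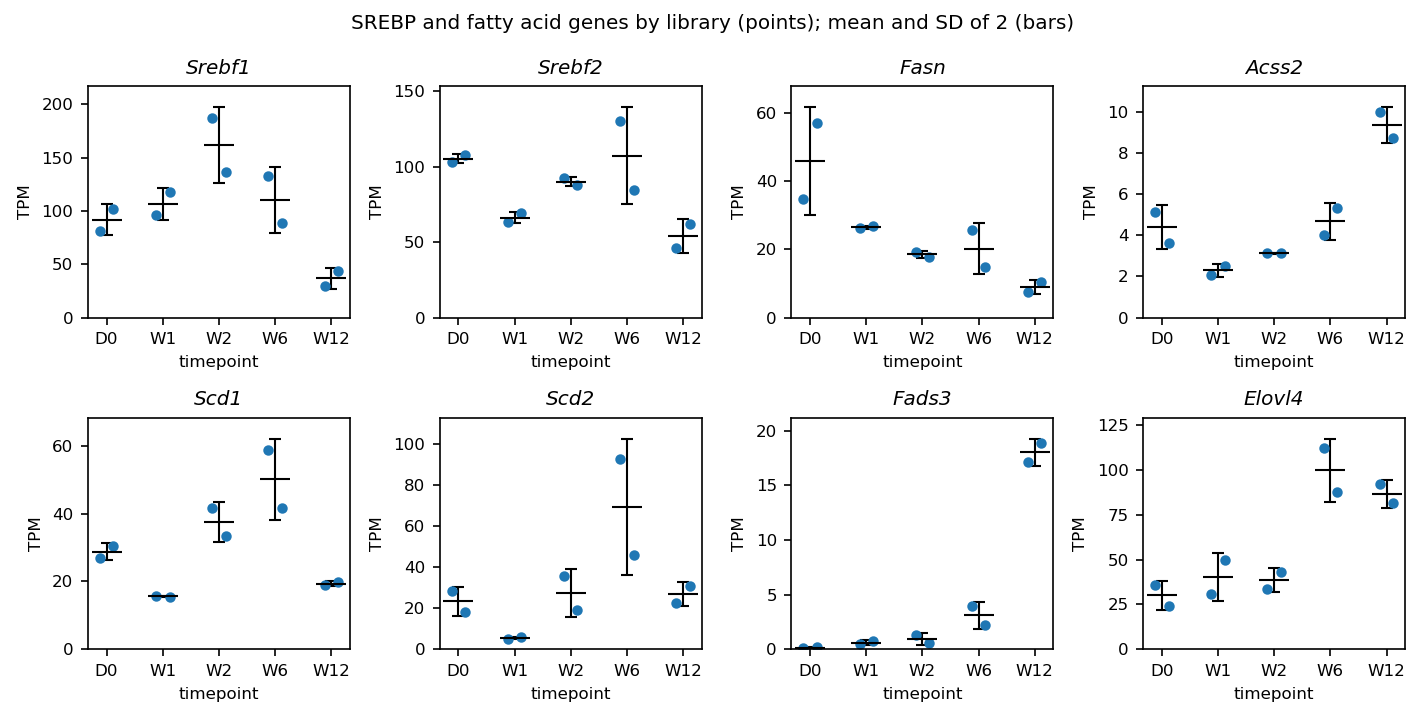
TPM (vertical axes, from 0) of the 2 SREBP genes and 6 fatty acid genes at each timepoint; points are the 2 libraries, the long bar their mean and the error bars 1 SD. *Srebf1*, *Srebf2* and *Fasn* are lowest at W12, *Scd1* and *Scd2* lowest at W1 and highest at W6, and *Fads3* and *Elovl4* highest late.

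The rest of these pathways was counted from lists of genes that are no members of the 39. Over all genes tested, the shares called at W1, W2, W6 and W12 were 9.89%, 15.7%, 32.4% and 43% (25.1% lower at W12). Of 19 tested genes of a list of further sterol genes (transport, esterification and SREBP processing), 2 were higher and 2 lower at W1, 1 and 1 at W2, 3 and 3 at W6 and 3 and 6 at W12. At W12 *Tmem97*, a sterol-binding protein of the ER (1.39 ± 0.26), and *Stard5* (1.13 ± 0.18) had risen. *Osbp*, the oxysterol-binding protein (-1.28 ± 0.20), and *Mbtps1*, the site-1 protease that cuts SREBP (-1.34 ± 0.21), had fallen. Of 9 LXR receptors and targets, 1 was higher and 0 lower at W1 and at W2, 1 and 3 at W6, and 0 and 5 at W12. The one higher from W1 to W6 was *Smpdl3a*, a phosphodiesterase (1.65 ± 0.19 at W1), and the falls at W12 were led by *Rxra*, the retinoid X receptor (-2.36 ± 0.23), and *Abca3* (-1.90 ± 0.28).

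Beside the same shares of all genes (9.89%, 15.7%, 32.4% and 43% called at the 4 timepoints), of 21 further fatty acid genes 2 were higher and 1 lower at W1, 3 and 2 at W2, 6 and 2 at W6 and 4 and 7 at W12. *Fabp5*, the epidermal fatty acid carrier, rose by 5.14 ± 0.40 at W12, from 126 and 53.0 TPM at D0 to 3111 and 2729, and *Scd3* by 3.12 ± 0.29, from 0.243 and 0.265 to 7.94 and 12.3 TPM. Among 14 genes of fatty acid oxidation, 0 were higher and 2 lower at W1, 0 and 3 at W2, 1 and 4 at W6 and 1 and 7 at W12. *Ppara*, the receptor that drives oxidation genes, fell furthest (-3.77 ± 0.38), and *Cpt1a*, which brings fatty acids into mitochondria, also fell (-1.17 ± 0.23). Of 22 ceramide and barrier lipid genes, 1 was higher and 1 lower at W1 and at W2, 7 and 3 at W6 and 7 and 2 at W12. The rises at W12 were led by *Degs2* (3.89 ± 0.21) and *Degs1* (1.99 ± 0.23), both dihydroceramide desaturases, and *Alox12b*, a barrier lipoxygenase (2.23 ± 0.29).

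Sebaceous gland cells make lipids by the same enzymes. Of 12 sebocyte markers 4 were tested, of which 2, 1, 3 and 4 were higher at W1, W2, W6 and W12 and 0 were lower, against 5.79%, 9.06%, 18.3% and 17.9% of all genes higher. The list summed to 75.5 and 58.7 TPM at D0 and 184 to 396 later, most of it *Mgst1* and *Plin2* in every library. Of the 12, 5 stayed under 1 TPM in every library. Of the 4 tested, *Mgst1* ranged from 28.3 to 344 TPM, *Plin2*, which coats lipid droplets, went from 27.6 and 26.7 TPM at D0 to 88.8 and 98.6 at W12, and *Cidea* from 0.828 and 1.07 at D0 to 13.8 and 4.73 at W6. Of those not tested, *Mc5r* was at up to 0.244 and *Awat1* at up to 0.293 TPM in any library. The part of sebaceous cells in the results was not tested. Reads of some genes could also be shared with related sequences. Of the 31-base words of their transcripts, 33.5% for *Acaca*, 31.9% for *Fdft1*, 27.9% for *Fdps*, 27.1% for *Idi1* and 13.1% for *Hmgcs1* also occur in other genes of GENCODE M21. These shares are not the error of the levels, which was not measured.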

How the data were processed

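The 39 genes, their roles and the other gene lists were chosen with earlier results of these data known. RNA-seq of sorted EpdSCs was analysed in 10 libraries, 2 at each of D0, W1, W2, W6 and W12. Hair placode libraries of the series, for which a table of the authors' own comparison was at hand (fold changes and p-values), were not used here. The authors trimmed reads with Skewer, quantified them with Salmon 1.4.0 against a GENCODE index of GRCm38 with the transgene added, and deposited TPM per gene from Tximport 1.12.3. The study tested counts with DESeq2, which TPM do not permit.

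Genes whose mean reached 1 TPM were tested on log2(TPM + 1) with limma 3.58.1 in R 4.3.3 (eBayes with trend, 1 mean per timepoint), adjusted by Benjamini-Hochberg over 13110 genes and called under 0.05. Gene positions are from GENCODE M21, which matched all 39. Named with the values of every library are *Srebf1*, *Srebf2*, *Insig1* and *Scap*, the 5 called genes with the largest change in each comparison, untested genes and genes called in both directions. Of the other lists, up to 4 of the genes with the largest change at W12 are named. The values per library of *Ebp* and *Acss2* and the change of *Smpdl3a* were picked after they were seen. Same-numbered replicates are different mice, and the number was fitted as a block only as an alternative. The other alternatives were a pseudocount of 0.1, all genes above 0 TPM, a mean of at least 5 TPM, 2 rescalings, eBayes without trend, only the 4 libraries compared, a log2 change of at least 1, and each library left out. Fits without W12, counts of the 16 mevalonate and sterol genes, and W12 against W2 and W1 and W6 against W1 were alternatives or comparisons chosen after seeing the data. The fit was first tested on simulated data for W1 against D0. It called 80 of 99 genes given a log2 change of 2 and 34 of 95 given 1. Of 12621 genes given no change, 4 were called. These shares hold for that simulated setting only, and a gene not called may still have changed. Figures were drawn in Python 3.11.15.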

Additional observations from a re-analysis of the deposited data

Results flagged for a closer look

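*Sc5d*, *Scd1* and *Scd2* were called in opposite directions against D0 at different timepoints. Genes picked for this must differ between those timepoints, so the differences follow from that choice and are given as values with no test. For *Sc5d*, lower than D0 at W1, W2 and W6 and higher at W12, W12 exceeded W1 by 2.23 ± 0.15 (log2 change and SE from limma), W2 by 2.08 ± 0.15 and W6 by 1.04 ± 0.15, with both W12 libraries above all 8 others. For *Scd1*, W6 exceeded W1 by 1.60 ± 0.19, and from W6 to W12 the change was -1.31 ± 0.19. For *Scd2*, W6 exceeded W1 by 3.36 ± 0.39, with both libraries of W6 above both of W1. The comparisons of W6 and W12 with W1 and of W12 with W2 were chosen after seeing the data.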

How the results depend on the processing

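No gene called against D0, from W2 to W6, from W6 to W12 or from W2 to W12 turned direction in the alternatives run: of 2156 values over 111 calls, 1807 stayed past the threshold and 349 missed it. The comparisons of W6 and W12 with W1 are not among these calls. Their counts of the 37 genes were taken under the rescalings and the replicate block. At W6 against W1, 24 were higher and 2 lower in the reported fit and with median-ratio scaling. With quantile normalization it was 25 and 2, and with the replicate block 22 and 2. At W12 against W1, 19 were higher and 6 lower in the reported fit and with the replicate block, and 20 and 6 with either rescaling. The count of the 37 genes called was within 1.5 times that reported except as follows. With all genes above 0 TPM tested, 10 were called at W1, 7 at W6, 6 from W2 to W6 and 5 from W6 to W12. With only the 4 libraries compared, 5 were called at W6, 2 from W1 to W2 and 5 from W6 to W12. With a log2 change of at least 1, 7 were called at W6, 9 at W12 and 7 from W6 to W12. With each library left out in turn, the counts ran from 9 to 17 at W1, 9 to 15 at W2, 8 to 15 at W6, 8 to 18 at W12, 0 to 2 from W1 to W2, 2 to 19 from W2 to W6, 3 to 13 from W6 to W12 and 26 to 35 over time; where a timepoint kept 1 library, that library was assumed to vary like the others. The cause of these differences was not tested. With the replicate block, 14 were called at W1, 11 at W2, 13 at W6, 15 at W12, 0 from W1 to W2, 12 from W2 to W6, 11 from W6 to W12 and 33 over time. Same-numbered libraries deviated with correlations of -0.13 to 0.18 and are different mice, so the number pairs nothing. With the numbers crossed, 15 were called at W1, 14 at W6 and 10 from W6 to W12. Among all genes, the share of calls that were higher moved from 58.6% to 47.4% at W1 and from 33% to 55% from W6 to W12 with median-ratio scaling. TPM hold no depth, so what depth would limit is unknown.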
